A study of Mus musculus with 12 samples.

Results

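The genes described here encode 9 parts of the complement system: the proteins C3, C4b, C2, Cfb and Cfp, the receptors C3ar1 and C5ar1, and the regulators Serping1 and Cd55. They were picked by gene symbol and are 9 of the 18609 genes listed in each expression table. The 12 RNA-seq libraries, in 4 groups of 3, came from tumours of the mouse colon cancer line MC38. Hosts were wild-type C57BL/6 mice given PBS, wild-type C57BL/6 mice given Salmonella, TLR4 knockout C57BL/6 mice given PBS, and TLR4 knockout C57BL/6 mice given Salmonella. Both were given intravenously, all groups carried the same tumour line, and tumours were taken 1 day later. Titles name the 3 of each group F-1, M-1 and M-2. No label states that each is a separate animal, so a p-value here reflects only how these libraries scatter, part of which may be technical. The labels do not give the Salmonella strain, the deleted stretch of Tlr4, or the age of the animals.

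Complement is a cascade of plasma proteins that marks microbes and damaged cells. In the classical pathway C1q, C1r and C1s cleave C4 and C2, which form a C3-cleaving enzyme on the target; in the alternative pathway factor B (Cfb) does this with C3 itself, and properdin (Cfp) stabilises the complex. Cleavage of C3 and C5 releases small peptides that act on the receptors C3ar1 and C5ar1 of myeloid cells. C1 inhibitor (Serping1) blocks C1r and C1s, and decay-accelerating factor (Cd55) takes apart the C3-cleaving enzymes on cell surfaces. The liver makes most plasma complement, and macrophages, neutrophils and stromal cells also make some of the components in tissue. TLR4 senses the lipopolysaccharide of Gram-negative bacteria such as Salmonella.

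The promoters of genes whose RNA did and did not rise after Salmonella are shown first, so that their letters can be read beside the values. RefSeq promoter entries (GRCm38.p6) were matched for 5 of the 9 genes. Shown are the 250 bases before the start of C3, Cfp and C5ar1, whose RNA rose, and of C3ar1, whose RNA did not, each read 5′ to 3′ on the gene's own strand, which is the minus strand for all 4. They lie at chr17:57228137-57228386 for C3, chrX:20931556-20931805 for Cfp, chr7:16259339-16259588 for C5ar1 and chr6:122856158-122856407 for C3ar1. Capitals mark matches on either strand to a motif of the kind bound by NF-kB (GGGNNNNNCC) or by C/EBP factors (TTNNGNAA).
C3: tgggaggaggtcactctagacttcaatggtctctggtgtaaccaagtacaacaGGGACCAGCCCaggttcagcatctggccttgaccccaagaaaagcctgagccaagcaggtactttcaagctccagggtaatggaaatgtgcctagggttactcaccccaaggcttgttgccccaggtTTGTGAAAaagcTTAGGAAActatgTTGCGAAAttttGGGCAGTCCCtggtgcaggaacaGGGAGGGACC
Cfp: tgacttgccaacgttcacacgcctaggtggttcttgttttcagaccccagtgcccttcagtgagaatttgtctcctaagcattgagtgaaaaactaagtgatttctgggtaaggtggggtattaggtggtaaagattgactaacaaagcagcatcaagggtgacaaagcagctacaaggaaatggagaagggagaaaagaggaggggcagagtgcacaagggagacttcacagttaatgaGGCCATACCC
C5ar1: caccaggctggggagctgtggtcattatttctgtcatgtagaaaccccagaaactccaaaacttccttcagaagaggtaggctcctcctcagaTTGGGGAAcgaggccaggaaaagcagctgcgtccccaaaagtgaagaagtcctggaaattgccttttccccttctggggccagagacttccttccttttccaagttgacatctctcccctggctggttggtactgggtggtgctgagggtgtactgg
C3ar1: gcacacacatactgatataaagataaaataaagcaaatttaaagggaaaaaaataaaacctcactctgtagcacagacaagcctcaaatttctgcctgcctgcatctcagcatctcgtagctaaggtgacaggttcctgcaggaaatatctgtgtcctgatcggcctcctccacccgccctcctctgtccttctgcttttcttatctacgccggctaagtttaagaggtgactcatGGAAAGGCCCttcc
These starts are RefSeq's. They differ from the GENCODE gene ends given below for C5ar1, where 202 of the 250 bases, the match included, lie inside the GENCODE gene, and for C3ar1, where 4 do. The C3 window held 4 NF-kB-type matches, with first bases 197, 196, 33 and 10 bases before the start, of which the first pair overlap each other. It also held 3 C/EBP-type matches, at 70, 58 and 45 bases before the start. Cfp had 1 NF-kB-type match 10 bases before the start, C3ar1 had 1 at 14 bases, and C5ar1 had 1 C/EBP-type match at 157 bases. The Cd55 window, not printed, held 4 NF-kB-type matches at 151, 61, 17 and 16 bases, the last pair overlapping. None of the 5 windows held a STAT-type match (TTCNNNGAA). Such matches are common: of 32851 windows of the same length, 45.8% held the NF-kB-type motif, 36.8% the C/EBP-type motif and 7.02% the STAT-type motif. A match describes the letters and is not a shown binding site, and the NF-kB-type motif stands both in genes that rose and in C3ar1.

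Libraries held between 30512134 and 38764537 fragments on listed genes. Values are FPKM, in which fragments are divided by gene length and by the total of the library. A level compared between genes thus depends on the gene length used. In FPKM, 3 fragments in a 1 kb gene equal 0.0774 to 0.0983, for counting error only. Each comparison was fitted on log2(FPKM / scaling factor + 0.5) over 12164 genes with limma, and adjusted p-values are Benjamini-Hochberg over all of these with a threshold of 0.05. Log2 fold changes are given on that scale, where the added 0.5 makes the change of a low gene smaller. Tlr4 RNA was present in every library, at 1.59 to 3.15 FPKM with PBS and 1.73 to 1.96 with Salmonella in knockout hosts, and at 2.48 to 2.58 and 2.58 to 3.78 in wild-type hosts. The labels do not say that the tumour cells lack Tlr4, so this level checks the host labels poorly. The 7 epithelial markers of the tumour list, Epcam and keratins among them, were near absent, with a summed level of 0.476 to 2.52 FPKM over all libraries.

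In wild-type hosts 6 of the 9 complement genes rose 1 day after Salmonella and 0 fell, where 19.2% of all tested genes were called higher and 16.2% lower. The genes that rose were C3, Cfb, Cfp, C5ar1, Serping1 and Cd55, by 2.09-fold to 4.68-fold. C4b, C2 and C3ar1 did not pass. The median log2 fold change of the 9 genes was 1.27, and that of all tested genes was 0.0. All 9 passed the filter on low values, but Cd55 passed it only through the wild-type Salmonella libraries and so had to differ; without it 5 of 8 genes rose, with a median of 1.29. In knockout hosts 0 of the 9 genes passed in either direction. In bulk tumour RNA, more cells of a type and more RNA per cell cannot be told apart.

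**Figure D1:**
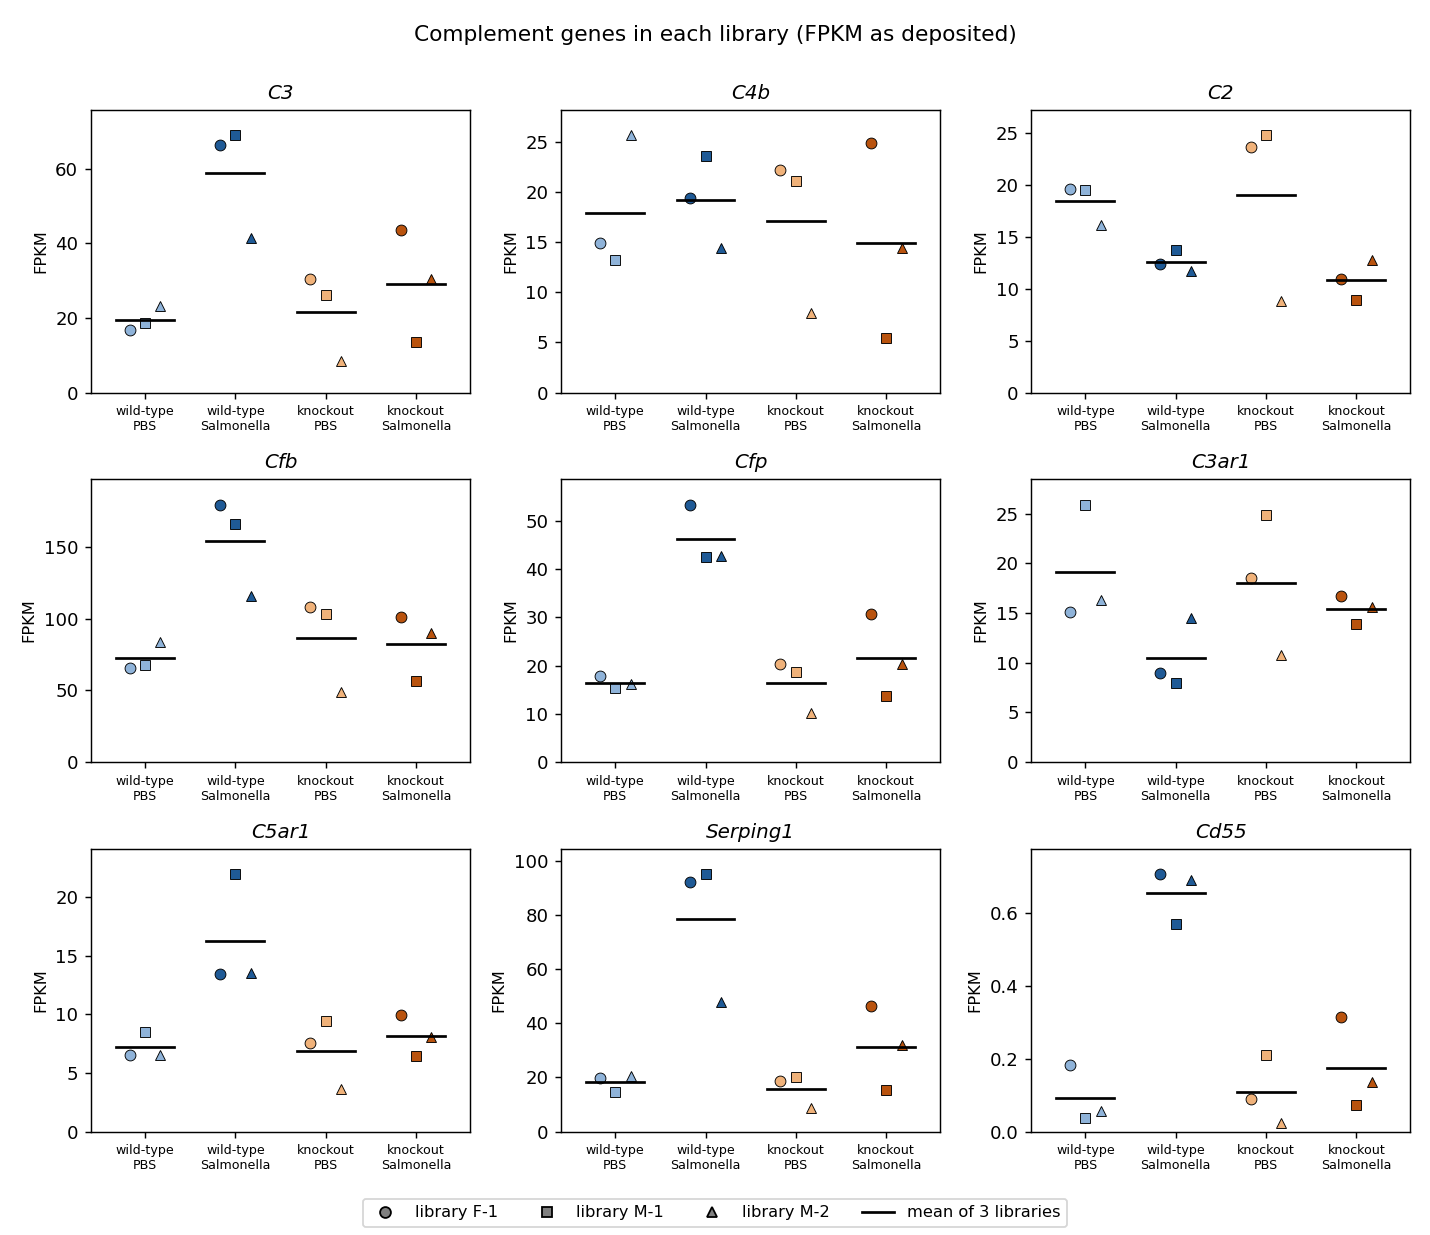
FPKM as deposited (y axis, 1 panel per gene, each with its own scale from 0) for the 4 groups (x axis); symbols tell F-1, M-1 and M-2 apart and lines are means of 3 libraries. The wild-type Salmonella libraries lie above the wild-type PBS libraries without overlap for C3, Cfb, Cfp, C5ar1, Serping1 and Cd55, and knockout PBS M-2 and knockout Salmonella M-1 are the lowest of their groups in all 9 panels.

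C3, the protein on which all pathways converge, lies on chromosome 17 (57203970 to 57228136, minus strand; this and the other gene positions are from GENCODE M21 on GRCm38, and the build the authors used is not known). Its level in wild-type hosts was 16.7, 18.7 and 23.1 FPKM with PBS, in the order F-1, M-1, M-2 used throughout, and 66.2, 68.9 and 41.4 with Salmonella. Each Salmonella library thus lay above each PBS library. The mean went from 19.5 ± 3.28 to 58.8 ± 15.2 FPKM (SD, n = 3), and C3 rose by a log2 fold change of 1.75 (SE 0.515, limma adjusted p = 0.0255). This call was lost when wild-type PBS F-1, M-1 or M-2, or wild-type Salmonella F-1 or M-1, was left out, with adjusted p = 0.0562 to 0.0941 and fold changes of 1.58 to 1.86. In knockout hosts C3 read 30.5, 26.1 and 8.52 FPKM with PBS and 43.4, 13.6 and 30.5 with Salmonella. These groups overlapped, and the log2 fold change of 0.48 (SE 0.515) did not pass (limma adjusted p = 0.637).

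Cfb, the serine protease of the alternative pathway, was the highest of the 9 genes in every library. It made up 35.6% to 45.6% of their summed FPKM. Cfb lies on chromosome 17 (34856374 to 34862518). Wild-type tumours held 65.5, 67.8 and 83.7 FPKM with PBS and 179.6, 166.3 and 116.2 with Salmonella, with no overlap. Cfb rose by a log2 fold change of 1.27 (SE 0.342, limma adjusted p = 0.018), and the call was lost without wild-type PBS F-1 or M-1 or wild-type Salmonella F-1 or M-1 (adjusted p = 0.0535 to 0.0773). Knockout libraries held 108.3, 103.1 and 49.1 FPKM with PBS and 101.2, 56.4 and 90.4 with Salmonella. The ranges overlapped almost fully, with a log2 fold change of -0.01 (95% interval -0.77 to 0.75, limma adjusted p = 0.996).

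Cfp, which encodes properdin and lies on chromosome X (20925454 to 20931555), had the smallest spread relative to its mean of the 3 proteins that rose in wild-type hosts. It stood at 17.7, 15.3 and 16.1 FPKM with PBS and at 53.3, 42.4 and 42.7 with Salmonella. The lowest Salmonella library was above the highest PBS library, and Cfp rose by a log2 fold change of 1.66 (SE 0.308, limma adjusted p = 0.00428), a call kept without any single library. Knockout tumours held 20.3, 18.6 and 10.2 FPKM with PBS and 30.7, 13.6 and 20.4 with Salmonella, which overlapped (log2 fold change 0.40, limma adjusted p = 0.512).

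C4b and C2, the substrates of C1s, behaved otherwise. C4b (chromosome 17, 34728380 to 34743882) read 14.9, 13.2 and 25.6 FPKM in wild-type PBS libraries and 19.4, 23.6 and 14.4 in wild-type Salmonella libraries. These overlapped, and the log2 fold change was 0.33 (95% interval -0.89 to 1.54, limma adjusted p = 0.659). In knockout hosts C4b spread over 7.88 to 22.2 FPKM with PBS and 5.47 to 24.8 with Salmonella (log2 fold change -0.27, limma adjusted p = 0.822). C4b has a near-identical copy, C4a, which was not analysed here, and the counting could have assigned shared fragments to either, so its level is uncertain.

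C2 (chromosome 17, 34862604 to 34898265) lies 85 bp from Cfb on the same strand. Exons of both overlap those of Gm20547 on the same strand, which is not among the listed genes. C2 also overlaps Zbtb12, which is listed, on the other strand. The counting may have split fragments at these overlaps. In wild-type hosts C2 stood at 19.6, 19.5 and 16.2 FPKM with PBS and 12.4, 13.7 and 11.7 with Salmonella. The deposited values did not overlap, but after scaling of libraries they did, and the log2 fold change of -0.33 (SE 0.327) did not pass (limma adjusted p = 0.448). In knockout hosts C2 held 23.6, 24.8 and 8.78 FPKM with PBS and 10.9, 8.93 and 12.8 with Salmonella. PBS libraries F-1 and M-1 lay above the Salmonella libraries and M-2 just below them. The log2 fold change of -0.64 (limma adjusted p = 0.315) became -1.11 and passed without that library (adjusted p = 0.0135).

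Of the receptors for the C3 and C5 peptides, C5ar1 rose in wild-type hosts and C3ar1 did not pass. C5ar1 (chromosome 7, 16246743 to 16259540) stood at 6.52, 8.54 and 6.52 FPKM with PBS and at 13.4, 21.9 and 13.5 with Salmonella. The groups did not overlap, and C5ar1 rose by a log2 fold change of 1.30 (SE 0.326, limma adjusted p = 0.0139). In knockout hosts its libraries overlapped, at 7.58, 9.46 and 3.67 FPKM with PBS and 9.91, 6.45 and 8.04 with Salmonella (log2 fold change 0.32, limma adjusted p = 0.624).

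C3ar1 (chromosome 6, 122847138 to 122856161) stood at 15.1, 25.9 and 16.4 FPKM in wild-type PBS libraries and at 9.0, 7.97 and 14.5 in wild-type Salmonella libraries. Each Salmonella library was below each PBS library. The log2 fold change of -0.65 (SE 0.284) did not pass (limma adjusted p = 0.0966); with the FPKM as deposited it was -0.84 and passed (adjusted p = 0.0478), and it passed without knockout PBS M-2 (adjusted p = 0.0357). Knockout libraries held 18.6, 24.8 and 10.7 FPKM with PBS and 16.7, 13.8 and 15.6 with Salmonella. These overlapped, with a log2 fold change of -0.13 (95% interval -0.75 to 0.50, limma adjusted p = 0.838).

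Serping1, the inhibitor of C1r and C1s, had the highest fold change of the 9 genes in wild-type hosts. It lies on chromosome 2 (84765387 to 84775444). Wild-type libraries held 19.96, 14.5 and 20.4 FPKM with PBS and 92.3, 95.1 and 48.0 with Salmonella. All 3 Salmonella libraries lay above the PBS libraries, and Serping1 rose by a log2 fold change of 2.23 (SE 0.465, limma adjusted p = 0.00683), from 18.3 ± 3.30 to 78.4 ± 26.4 FPKM (SD, n = 3). In knockout hosts it stood at 18.6, 20.2 and 8.77 FPKM with PBS and 46.2, 15.3 and 32.1 with Salmonella. Libraries F-1 and M-2 of the Salmonella group were above the PBS range and M-1 was within it, and the log2 fold change of 0.93 (SE 0.465) did not pass (limma adjusted p = 0.306).

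Cd55, a membrane regulator on chromosome 1 (130439027 to 130462744), was low in all libraries. Wild-type libraries held 0.182, 0.0368 and 0.0574 FPKM with PBS, from 17 to 83 fragments each, and 0.706, 0.569 and 0.691 with Salmonella, from 212 to 319 fragments. The groups did not overlap. Cd55 rose by a log2 fold change of 1.06 (SE 0.193, limma adjusted p = 0.00317), and by 3.34 when the recovered fragments were tested with voom, which adds no constant of 0.5 FPKM. Without any 1 of the wild-type Salmonella libraries it no longer passed the filter and was not tested. Knockout libraries held 0.0891, 0.211 and 0.0247 FPKM with PBS and 0.315, 0.0739 and 0.135 with Salmonella, which overlapped (log2 fold change 0.15, limma adjusted p = 0.70). Its exons overlap those of the antisense gene Gm16083, which is not among the listed genes. Strand was not given, so reads of Cd55 and Gm16083 cannot be told apart.

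In the deposited FPKM the 6 genes that rose in wild-type hosts were higher without overlap, where 15.6% of tested genes were, and C2 and C3ar1 were lower without overlap, where 29.8% were. Without scaling the median log2 fold change of all tested genes in wild-type hosts was -0.19, with 1500 genes called higher and 3365 lower in place of 2337 and 1975. The 6 genes passed with and without scaling. Leaving out wild-type Salmonella F-1 or M-1 left 3 of the complement genes called higher, Cfp, C5ar1 and Serping1.

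In knockout hosts 0 of 9 genes passed, where 0.756% of tested genes were called in either direction. In the deposited FPKM 0 of the 9 were without overlap between treatments, where 29.4% of tested genes were. An unadjusted p under 0.05 was reached by 0 of the 9 genes, and voom called 22 genes in all and 0 of the 9. Log2 fold changes were positive for 5 of the 9 and ran from -0.64 for C2 to 0.93 for Serping1. Of all calls in knockout hosts, 52 were higher and 40 lower, and 43 and 21 without scaling.

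**Figure D2:**
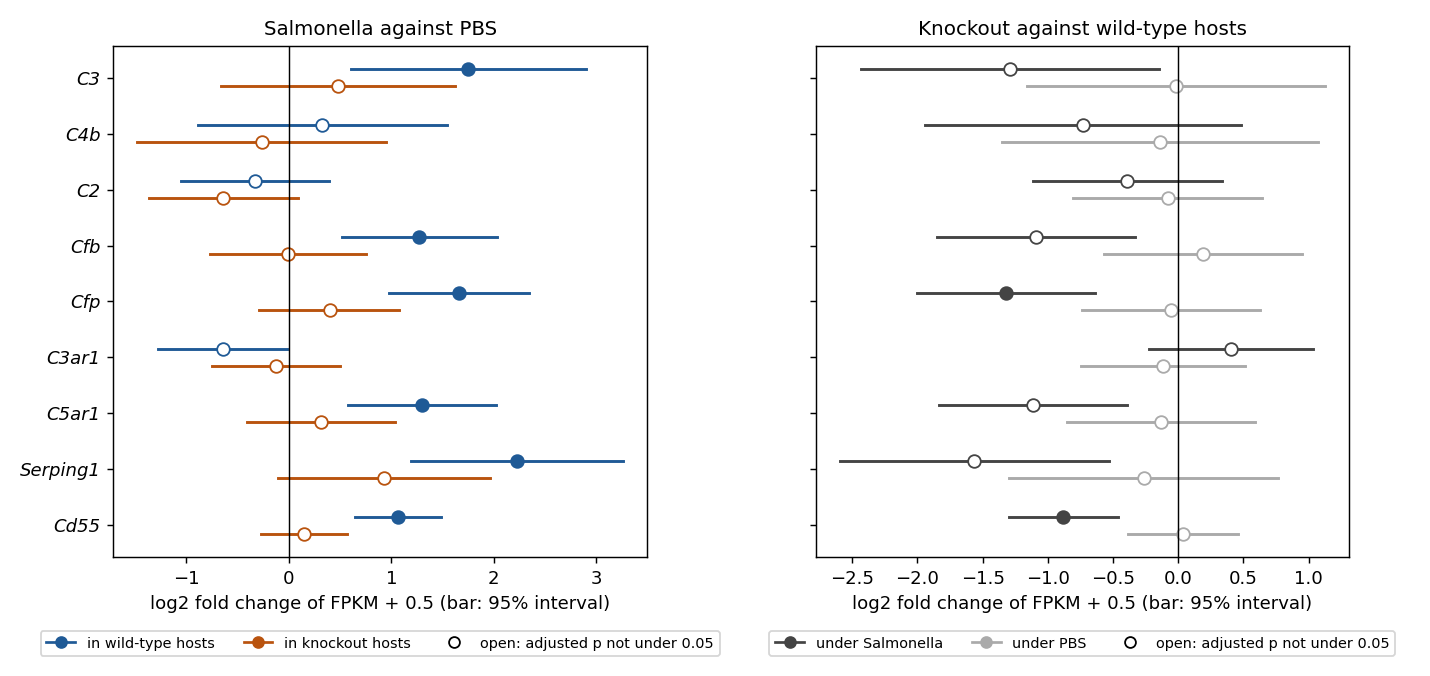
Log2 fold change of FPKM + 0.5 (x axis; bars are 95% intervals) for the 9 genes (y axis), Salmonella against PBS on the left and knockout against wild-type hosts on the right; filled points passed an adjusted p of 0.05. In wild-type hosts 6 points are filled and in knockout hosts 0, while under Salmonella only Cfp and Cd55 are filled between hosts and under PBS none is.

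Tumours of knockout and wild-type hosts were compared within each treatment. Under Salmonella, Cfp and Cd55 were lower in knockout hosts, 2 of 9 genes, where 5.82% of tested genes were called lower and 2.92% higher. Cfp differed by a log2 fold change of -1.32 (SE 0.308, limma adjusted p = 0.0321) and Cd55 by -0.88 (SE 0.193, limma adjusted p = 0.0239). Cd55 passed the filter only through the wild-type Salmonella libraries and so had to differ here too; without it 1 of 8 genes was lower. Neither call was firm. Both were lost when only these 2 groups were fitted (adjusted p = 0.115 and 0.0987) and without knockout Salmonella M-1 (0.109 and 0.099) or M-2 (0.0926 and 0.0825). Cfp also failed without wild-type PBS M-2 (0.0515), wild-type Salmonella F-1 (0.136) or M-1 (0.109). This comparison uses the same wild-type Salmonella libraries as the treatment comparison in wild-type hosts, so the 2 sets of values are not independent.

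Serping1 (log2 fold change -1.56, limma adjusted p = 0.062), C5ar1 (-1.12, 0.0583) and Cfb (-1.09, 0.0699) were lower in knockout hosts under Salmonella without overlap but did not pass. With wild-type Salmonella M-2 left out all 3 passed (adjusted p = 0.0108, 0.0189 and 0.0146), as C5ar1 and Cfb did without knockout PBS M-2 (0.0266 and 0.0362). With Cfp these made 4 of 8 genes lower without overlap, where 9.53% of tested genes were, and Cd55, fixed by the filter, was a further one. C3 overlapped (-1.29, limma adjusted p = 0.128), as did C4b (-0.73, 0.383), C2 (-0.39, 0.438) and C3ar1 (0.41, 0.351). Without scaling the median of all tested genes in this comparison was 0.16, and the calls split into 834 higher and 591 lower in place of 355 and 708.

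Under PBS 0 of the 9 genes differed between hosts, where 0.0% of tested genes were called. Log2 fold changes ran from -0.26 for Serping1 to 0.19 for Cfb, and every adjusted p from limma was 1.0. In the deposited FPKM 0 of the 9 genes were without overlap between hosts, where 7.89% of tested genes were. Over all genes 176 had an unadjusted p under 0.05, 0 of the 9 among them, and voom called 0. The 95% interval for C3, from -1.16 to 1.13, leaves room for a difference in either direction.

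The difference between the treatment effects of both hosts was tested as an interaction, knockout effect minus wild-type effect. It passed for 0 of the 9 genes by limma, where 0.0247% of tested genes passed (3 genes), and for 0 genes by voom. The estimates were negative for 8 of the 9, from -1.30 for Serping1 to -0.31 for C2, and 0.52 for C3ar1. An unadjusted p under 0.05 was found for Cd55 (-0.92, adjusted p = 0.243), Cfp (-1.27, adjusted p = 0.28) and Cfb (-1.28, adjusted p = 0.303). Cfb passed once wild-type Salmonella M-2 was left out (-1.57, adjusted p = 0.0496). A treatment effect that differs between hosts was therefore not shown for any of the 9 genes with all libraries, although 6 passed in wild-type hosts and 0 in knockout hosts.

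The spread in knockout hosts came with 1 library in each group. Knockout PBS M-2 and knockout Salmonella M-1 held the lowest value of their group for all 9 genes, and knockout Salmonella F-1 held the highest for 8 of 9. The summed FPKM of the 9 genes was 249.8, 248.2 and 107.7 in knockout PBS F-1, M-1 and M-2, and 284.2, 133.7 and 224.4 with Salmonella. Wild-type hosts were at 176.3 to 208.0 with PBS and 303.1 to 446.3 with Salmonella. Depth was not low in the low libraries, with 36439257 and 38764537 fragments. Without both, a choice made after seeing the data, 6 genes rose in wild-type hosts as before, C2 was lower in knockout hosts after Salmonella (-0.97, limma adjusted p = 0.0394), and 0 genes differed between hosts under Salmonella.

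The order of levels changed with treatment in wild-type hosts. With PBS, Cfb at 72.4 FPKM was above the rest without overlap, and C3, C3ar1, C2, Serping1, C4b and Cfp followed at 19.5 to 16.4 FPKM, each overlapping the next. C5ar1 at 7.19 and Cd55 at 0.0919 FPKM came last, without overlap. With Salmonella, Cfb at 154.0 FPKM stayed first without overlap, followed by Serping1 at 78.4, C3 at 58.8 and Cfp at 46.1, of which neighbours overlapped. C4b at 19.2, C5ar1 at 16.3, C2 at 12.6 and C3ar1 at 10.5 FPKM came below Cfp without overlap, and Cd55 at 0.655 FPKM was last. In knockout hosts Cfb was also first and Cd55 last without overlap with either treatment; C5ar1 was eighth, and all other neighbours overlapped.

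Ratios within a library do not depend on its scaling, and 4 were formed after seeing the data from genes with related roles. Each puts a gene called higher in wild-type hosts after Salmonella over a gene that did not pass. Their shifts therefore restate the values of single genes and are no further evidence. The share of other gene pairs without overlap was not determined. With 3 libraries against 3 the exact permutation test cannot go below a two-sided p of 0.1, so none of the 16 comparisons made could pass (smallest adjusted p = 0.133). Cfb over C2, the proteases of the alternative and classical C3-cleaving enzymes, was 3.34, 3.47 and 5.18 in wild-type PBS libraries and 14.5, 12.1 and 9.90 with Salmonella. In knockout hosts it was 4.58, 4.16 and 5.59 with PBS and 9.28, 6.32 and 7.09 with Salmonella. The ratio was thus higher with Salmonella without overlap in both hosts, 3.08-fold in wild-type and 1.57-fold in knockout hosts (exact permutation p = 0.1 for each). Knockout PBS M-2, the lowest of its group for single genes, was the highest of its group for this ratio and the lowest for the other 3 ratios.

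C5ar1 over C3ar1 was 0.431, 0.330 and 0.399 in wild-type PBS libraries and 1.49, 2.75 and 0.935 with Salmonella. Knockout libraries held 0.408, 0.381 and 0.342 with PBS and 0.593, 0.466 and 0.515 with Salmonella. The 2 receptors thus changed place in order in wild-type libraries F-1 and M-1 only, and the ratio was 4.08-fold higher with Salmonella in wild-type and 1.39-fold in knockout hosts, both without overlap (exact permutation p = 0.1 for each). C3 over C4b went from a geometric mean of 1.12 to 3.06 in wild-type hosts (2.72-fold) and from 1.22 to 2.10 in knockout hosts (1.71-fold). Serping1 over C1ra, inhibitor over target protease, went from 0.694 to 2.51 (3.62-fold) and from 0.562 to 1.35 (2.41-fold). Both were without overlap in each host (exact permutation p = 0.1 for each).

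All 4 ratios were lower in knockout than in wild-type hosts under Salmonella without overlap, by 1.46-fold for C3 over C4b to 3.0-fold for C5ar1 over C3ar1 (exact permutation p = 0.1 for each). This comparison uses the wild-type Salmonella values by which the first gene of each ratio was called. Under PBS all 4 overlapped between hosts (exact permutation p = 0.3 to 0.8).

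**Figure D3:**
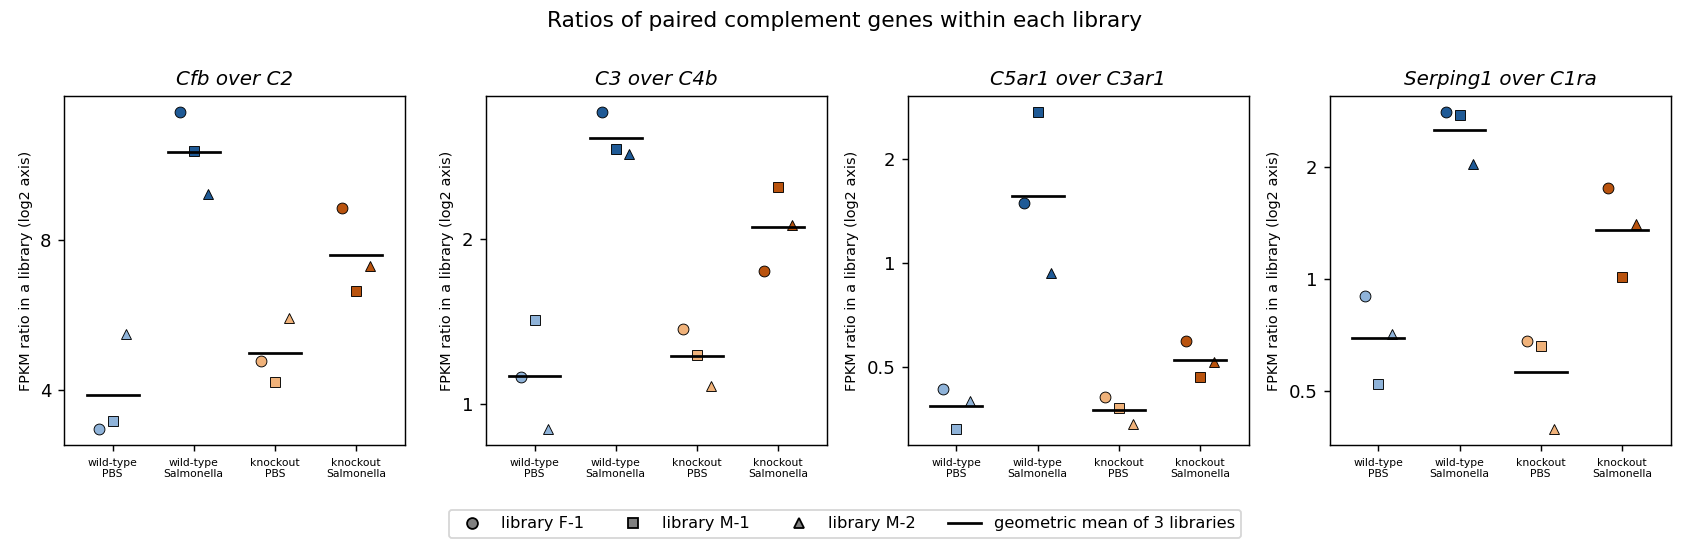
Ratios of FPKM within a library (y axis, log2 scale, 1 panel per ratio) for the 4 groups (x axis); symbols are libraries and lines are geometric means of 3. In each panel the Salmonella libraries lie above the PBS libraries of the same host, and the wild-type Salmonella libraries lie highest.

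The rest of the pathway was read from a list of 51 complement genes, of which 47 were listed and 26 tested, the 9 genes included. In wild-type hosts 10 of the 26 were higher and 2 lower, where 19.2% and 16.2% of all tested genes were. Among them, Cd55 passed the filter only through wild-type Salmonella libraries and Masp1 only through PBS libraries. Of the 17 tested genes outside the 9, 4 rose, 2 fell and 11 did not pass, with a median log2 fold change of 0.03. These counts are near the shares over all genes. In knockout hosts 0 were higher and 1 lower.

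Among classical pathway genes 0 of 7 tested passed in either host, too few genes to set apart from the 19.2% called higher and 16.2% called lower in wild-type hosts or the 0.756% called in knockout hosts. C1qa, C1qb and C1qc, the chains of C1q, had mean levels of 215.9 to 248.5 FPKM in wild-type PBS libraries and 113.4 to 159.8 with Salmonella, with log2 fold changes of -0.78 to -0.39. C1ra, a protease of C1, was at 0.40 (limma adjusted p = 0.223) and C1s1, the other protease, at 0.04 (limma adjusted p = 0.955).

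In the lectin pathway 2 genes were tested. Fcna, a ficolin that binds microbial sugars, rose in wild-type hosts from 0.960 ± 1.02 to 4.16 ± 1.98 FPKM (SD, n = 3; log2 fold change 1.93, limma adjusted p = 0.0246). Its deposited values overlapped, with PBS F-1 at 2.14 and Salmonella M-1 at 1.89 FPKM, and after scaling of libraries they did not. Masp1, a protease of this pathway, fell from 0.531 ± 0.195 to 0.126 ± 0.0663 FPKM (-0.64, limma adjusted p = 0.0283). Masp1 passed the filter only through PBS libraries, 2 of wild-type and 1 of knockout hosts. The filter thus favoured a fall after Salmonella, though it did not fix the call. Of C3 and the alternative pathway, 3 of 4 rose in wild-type hosts. The fourth was Cfd, factor D, which spread there from 0.205 to 4.61 FPKM with PBS and 3.01 to 28.9 with Salmonella. It did not pass (2.70, limma adjusted p = 0.153). Knockout Salmonella libraries held 40.2, 0.699 and 0.410 FPKM. Adipocyte marker sums were 7.59, 0.155 and 0.145 FPKM in these and 5.65, 1.57 and 0.464 in wild-type Salmonella libraries, and a link to Cfd was not tested.

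Terminal pathway RNA was low, with Hc, which encodes C5, at 0.574 to 1.16 FPKM in wild-type libraries, and 0 of 2 tested genes passed. Of soluble regulators 1 of 3 tested rose, Serping1, while Clu and Vtn had log2 fold changes of 0.08 and -0.28. Of membrane regulators 2 were tested in wild-type hosts, Cd55, whose rise the filter fixed, and Cr1l (Crry), a regulator of C3 cleavage, which also rose. Cr1l went from 15.7 ± 0.575 to 20.4 ± 2.34 FPKM (SD, n = 3; log2 fold change 0.57, limma adjusted p = 0.00884), an FPKM far above that of Cd55. Part of that gap lies in the gene length used for Cd55. In fragments, wild-type Salmonella libraries held 1274 to 1403 for Cr1l and 212 to 319 for Cd55. Cd59a, which blocks the membrane attack complex, was not tested and stood at 0.0243 to 0.0883 FPKM with PBS and 0.287 to 0.521 with Salmonella for wild-type tumours. Knockout tumours held 0.0906 to 0.211 and 0.0542 to 0.241 FPKM, which overlapped.

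Of 6 receptor genes tested, 3 rose and 1 fell in wild-type hosts. Itgam, the alpha chain of complement receptor CR3, rose from 21.2 ± 2.65 to 60.6 ± 13.7 FPKM (SD, n = 3; log2 fold change 1.68, limma adjusted p = 0.00822). Itgax, the alpha chain of the related receptor CR4, fell from 7.22 ± 0.973 to 0.970 ± 0.276 FPKM (-2.25, limma adjusted p = 0.000136). It also fell in knockout hosts, from 8.29 ± 2.53 to 2.69 ± 0.499 FPKM (-1.41, limma adjusted p = 0.0157). Cd93, a membrane receptor of endothelial and myeloid cells, rose in wild-type hosts (0.92, limma adjusted p = 0.00277). Itgb2, the beta chain of CR3 and CR4, overlapped between treatments in wild-type hosts and did not pass (0.46, limma adjusted p = 0.319). Under Salmonella knockout hosts were lower for Itgam (-1.59, limma adjusted p = 0.032) and Cd93 (-0.88, limma adjusted p = 0.0159) and higher for Itgax (1.00, limma adjusted p = 0.0209).

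**Figure D4:**
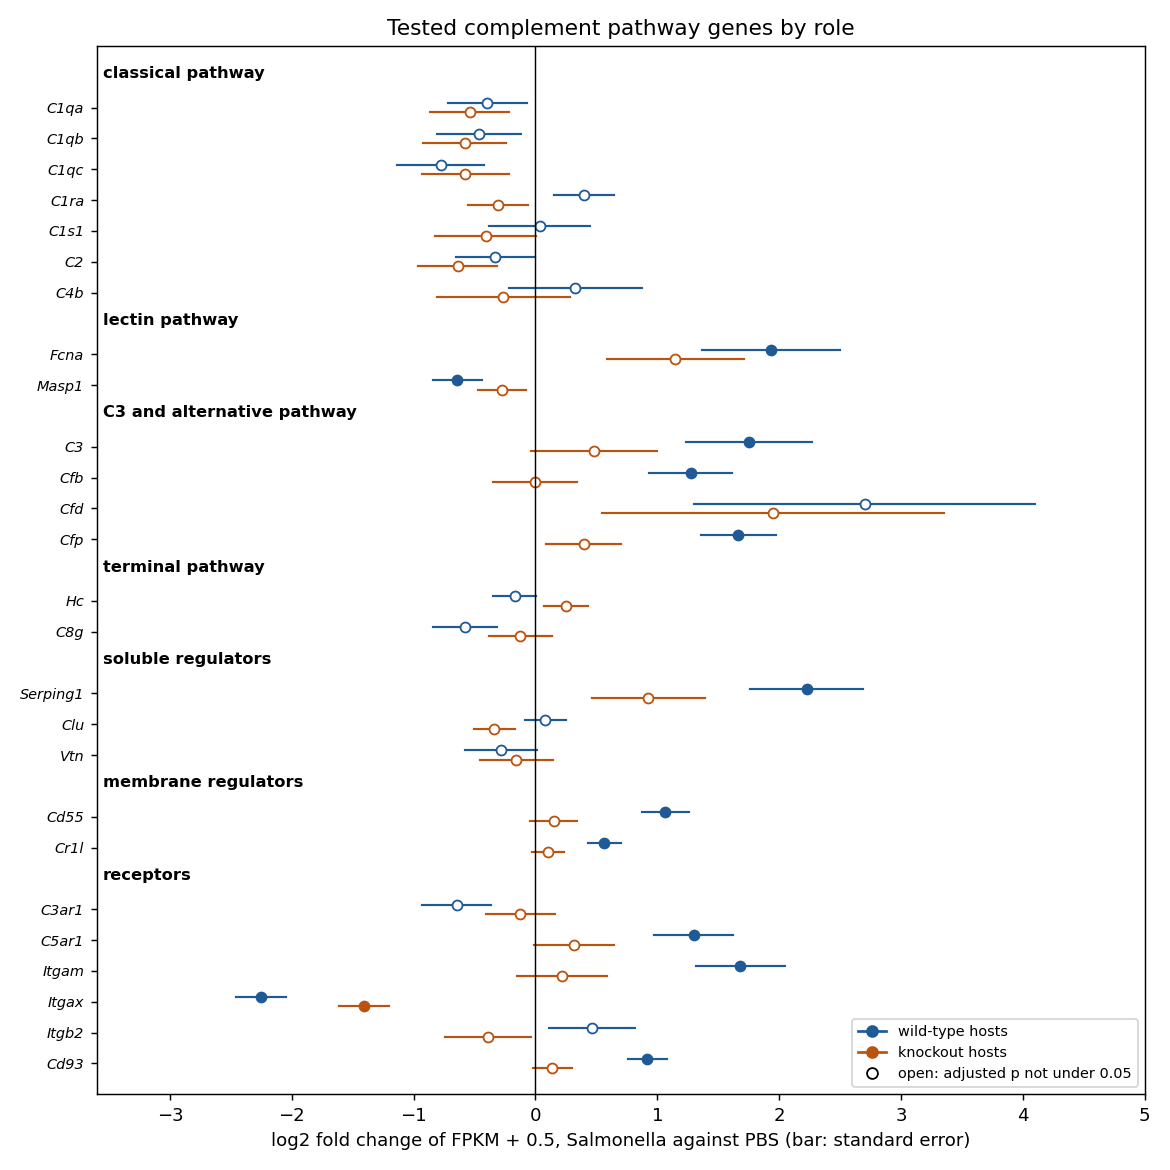
Log2 fold change of FPKM + 0.5 after Salmonella (x axis; bars are standard errors) for the 26 tested complement genes (y axis), by role, in wild-type and knockout hosts; filled points passed an adjusted p of 0.05. In wild-type hosts 10 filled points lie above 0 and 2 below, 0 of 7 classical pathway genes are filled, and in knockout hosts only Itgax is.

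Markers of other cells moved in the same libraries, and their part in the complement values was not tested. The filter on low values was not broken down by marker. A marker that passed it only through Salmonella libraries was favoured or bound to be higher in them, and the marker counts here and below may include such genes. Among all tested genes 19.2% were called higher and 16.2% lower in wild-type hosts, and 0.756% either way in knockout hosts. In wild-type hosts 11 of 11 tested neutrophil markers rose after Salmonella. Their summed level was 17.1 to 27.7 FPKM with PBS and 2786 to 18823 with Salmonella, and 15.7 to 18.1 and 541.5 to 961.2 in knockout hosts, where 6 of 11 rose. Elane was at 0 in the wild-type Salmonella libraries and Ly6g, Mpo and Ngp in the knockout PBS libraries. Wild-type Salmonella F-1, M-1 and M-2 had neutrophil sums of 3079, 18823 and 2786 FPKM. The summed level of the 9 complement genes was 446.3, 440.5 and 303.1 FPKM in the same order. Of the 9 genes 5 were highest in M-1, namely C3, C4b, C2, C5ar1 and Serping1, while 3 were highest in F-1 and 1 in M-2.

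Of 10 monocyte and macrophage markers 1 rose and 2 fell in wild-type hosts, with sums of 217.8 to 259.1 FPKM with PBS and 177.8 to 200.8 with Salmonella. In knockout hosts 0 passed, with sums of 175.0 to 305.2 and 188.0 to 226.3, and the lowest sum of each group was in M-2. Of the libraries with low complement values, PBS M-2 was thus lowest for these markers and Salmonella M-1, at 190.6 FPKM, was not. Endothelial markers rose for 7 of 8 genes in wild-type hosts, with sums of 31.6 to 45.0 FPKM with PBS and 74.2 to 93.4 with Salmonella. Fibroblast and pericyte markers rose for 4 of 7 and fell for 1, with sums of 302.4 to 483.1 and 748.3 to 1188 FPKM. In knockout hosts 0 endothelial and 0 fibroblast markers passed, with sums of 31.7 to 44.0 and 44.0 to 58.6 FPKM for endothelial markers and 293.6 to 421.2 and 431.4 to 574.6 for fibroblast markers. Salmonella M-1 held the lowest neutrophil, endothelial and fibroblast sums of its group, while PBS M-2 held the highest endothelial sum of its group, at 44.0 FPKM. Both libraries held the lowest mast cell, dendritic cell, and T and NK cell sums of their groups.

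Other lists also moved. Mast cell markers rose for 6 of 6 genes, platelet and erythroid markers for 5 of 6 and skeletal muscle markers for 3 of 4 in wild-type hosts. The share called higher there was 19.2% over all tested genes, and the same limit of the filter holds for these lists. Muscle sums were 2.53 to 5.65 FPKM with PBS and 37.4 to 83.9 with Salmonella, and reached 106.4 FPKM in knockout Salmonella F-1. Within the knockout Salmonella group only, that library was the highest for 8 of the 9 complement genes. Of the dendritic, T and NK, B, hepatocyte, adipocyte and keratinocyte lists, 0 tested genes rose and 1 T and NK cell gene fell in wild-type hosts. Few were tested, in that order 2, 5, 3, 1, 1 and 2 genes, so these lists say little about their cells. Under Salmonella, where Cfp and Cd55 were lower in knockout hosts, 10 of 11 neutrophil, 6 of 8 endothelial, 5 of 6 mast cell, 5 of 6 platelet and erythroid, and 2 of 7 fibroblast and pericyte markers were lower there too. Over all tested genes 5.82% were called lower and 2.92% higher. Of 10 monocyte and macrophage, 4 skeletal muscle and 5 T and NK cell markers 0 were lower. The dendritic, B, hepatocyte, adipocyte and keratinocyte lists also had 0 lower, and 1 of 3 tested B cell markers was higher. Hepatocyte markers were nearly absent, with sums of 0.667 to 2.71 FPKM, and Alb and Ttr were at 0 in all 12 libraries.

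For each complement gene the tested genes with the most similar profile over the 12 libraries were found as those with the smallest mean absolute difference of centred log2 values. C3 was nearest to Cp and Socs3, at 0.224 and 0.236, where the mean absolute deviation of C3 itself was 0.74. Serping1 was nearest to Nbl1 and Lbp, both at 0.162, against its own deviation of 0.93. Cfb was nearest to Spi1 (0.138) and Rnf113a2 (0.145), and Cfp to Lgi2 (0.161) and Fhl1 (0.189). The own deviations of Cfb and Cfp were 0.50 and 0.66, and no test was made.

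C5ar1 was nearest to Lrrc25 (0.129) and Adam8 (0.138), C3ar1 to Ms4a7 (0.135) and Rab7b (0.15), and C2 to Tagap (0.148) and Ptprc (0.157). C4b was nearest to another classical pathway gene, C1s1 (0.229), then to Slco3a1 (0.27), and Cd55 to Rnase4 (0.112) and Lims2 (0.114). Their own deviations were 0.52 for C5ar1, 0.31 for C3ar1, 0.40 for C2, 0.55 for C4b and 0.40 for Cd55. None of the 9 genes had another of the 9 as candidate, since these were left out of the search.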

How the data were processed

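RNA was measured in 12 libraries of MC38 tumours. Per the labels' protocols, TRIzol was used for extraction and a VAHTS Universal V6 kit for the libraries; strand is not given. Fastp, HISAT2 and HTSeq stand in the submitters' processing notes, with neither versions nor roles. The genome build is not given in the sources used here. In the tables the authors deposited, each gene has 1 value per library, taken as FPKM because 99.88% of genes with signal held whole fragments at 1 length, within 0.01 fragments. Groups were read from genotype and treatment labels.

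The filter kept genes that reached 0.5 FPKM in 3 or more libraries. The test was limma 3.58.1 (R 4.3.3), applied to log2(FPKM / scaling factor + 0.5) with a mean for each group and with trend and robust moderation. Scaling factors, trimmed means of log ratios (30% of ratios, 5% of levels), ran from 1.001 to 1.049, except for 2 of the wild-type Salmonella libraries (F-1 at 0.844, M-1 at 0.845). Tests are two-sided, and ratios used scipy 1.17.1. The fit was tested on simulated data. Named genes are Tlr4, the 9 complement genes, genes of the pathway lists and, per complement gene, the 2 of most similar profile, without predicted symbols. The complement genes and lists were chosen with earlier results of these data known. A gene of the pathway lists is not reported here. Alternatives were other scalings, pseudocounts of 0.1 and 1, no filter, only the groups compared, a replicate block, voom on recovered fragments, each library left out and, added after seeing the data, both low knockout libraries left out.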

Additional observations from a re-analysis of the deposited data

How the results depend on the processing

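Over the 8 calls on single genes, 142 alternative values kept their side of the threshold and 20 lost it, in the same direction. In wild-type hosts 6 genes were higher under every alternative except leaving out 1 library (range 3.0 to 6.0). There, genes called lower were 0.0 to 1.0 without 1 library, 1.0 with FPKM as deposited and 1.0 without both low knockout libraries. In knockout hosts genes called lower were 0.0 to 1.0 without 1 library and 1.0 without both low libraries. Between hosts under Salmonella, genes called lower were 0.0 to 4.0 without 1 library, 0.0 with only the groups compared and 0.0 without both low libraries. For the interaction they were 0.0 to 1.0 without 1 library. Some values near 0 that never passed changed sign; the cause was not tested. Without both low libraries the host difference under PBS became 0.53 for C3, 0.32 for C4b, 0.38 for C2, 0.23 for Cfp, 0.20 for C3ar1, 0.23 for C5ar1 and 0.10 for Serping1. With 1 library left out it ranged from -0.35 to 0.53 for C3, -0.39 to 0.32 for C4b, -0.33 to 0.39 for C2, -0.01 to 0.55 for Cfb, -0.23 to 0.24 for Cfp, -0.37 to 0.20 for C3ar1, -0.39 to 0.23 for C5ar1, -0.47 to 0.10 for Serping1 and -0.08 to 0.14 for Cd55. The treatment change in knockout hosts likewise ranged from -0.07 to 0.95 for C3, -0.75 to 0.31 for C4b, -0.37 to 0.25 for Cfb, -0.44 to 0.14 for C3ar1 and -0.05 to 0.57 for C5ar1.

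Correlations of deviations between libraries of the same name in the titles ran from -0.33 to 0.40. Libraries of different names were not compared, so whether the names pair the libraries was not tested. With the name as a replicate block 6 genes were higher in wild-type hosts and 3 were lower in knockout hosts under Salmonella, where C5ar1 passed (-1.12, adjusted p = 0.0424). Cd55 had no value without any 1 wild-type Salmonella library, nor with only the groups compared where that group was not included, and the interaction needs all groups. Depth limits Cd55 most, at 11 to 319 fragments per library.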
